A study of Mus musculus with 15 samples.

Results

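The 43 protein-coding genes described here are the mouse glucose and phosphate transporters and their closest relatives. They were taken by name as every member of the solute carrier families Slc2a (12 genes), Slc5a (13), Slc17a (9), Slc20a (2), Slc34a (3) and Slc37a (4), out of 21596 protein-coding genes in a table of 46078 genes. The rule uses names and no expression value, but it was chosen with earlier results of these data known. mRNA-Seq had been run on podocyte fractions, cells sorted with magnetic beads and antibodies to nephrin from the digested kidney cortex of male C57BL/6J mice. Young mice were 4 months old and uninjected. Aged mice were 21 months old and were injected into the peritoneum once a week for 8 weeks, at 12 mg/kg, with a neutralizing antibody to mouse PD-1 (RMP1-14, called aPD1ab) or with the isotype control IgG2a (2A3); titles of the aPD1ab samples also give 47 days. The labels list 5 mice a group, and the columns of the count table carry numbers only; 13 of them (5 young, 4 aged IgG2a and 4 aged aPD1ab) were tied to a group by the numbers printed in the principal component plot of the study, and 2 columns were not used. The fraction is an enrichment from whole cortex, so cells of other types can be in it.

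Glucose and phosphate are filtered freely in the glomerulus and recovered in the proximal tubule. On the luminal side, sodium drives glucose in through SGLT2 (Slc5a2) early and SGLT1 (Slc5a1) later along the tubule, and phosphate through NaPi-2a (Slc34a1) and NaPi-2c (Slc34a3); glucose then leaves toward the blood through GLUT2 (Slc2a2) and GLUT1 (Slc2a1). Podocytes themselves take up glucose through facilitative GLUT carriers, and the phosphate carriers PiT-1 (Slc20a1) and PiT-2 (Slc20a2) are found in most cells.

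The labelled cell type was checked against markers. Summed per kilobase of exon, 15 proximal tubule markers reached 1318 to 19290 CPM (counts scaled to the library size by TMM) per kilobase, and 12 podocyte markers 66.1 to 327, so tubule mRNA stood above podocyte mRNA in each of the 13 libraries. Both lists differed between the groups. Proximal tubule markers summed to 12845 to 18789 CPM in young mice, 9870 in aged IgG2a replicate 1, 2100 to 3106 in the other aged IgG2a libraries and 9558 to 26925 with aPD1ab. Podocyte markers summed to 993 to 1576, 594 to 798 and 313 to 992 CPM, and macrophage markers to 2046 to 3680, 3285 to 9463 and 2418 to 5471 CPM in the same order of groups. IgG2a replicate 1 stood apart from its group: on the first principal component (40.5% of the variance) it lay at -16.7, while the other IgG2a libraries lay at 71.9 to 84.8. The young libraries lay at -41.5 to -24.8 and the aPD1ab libraries at -64.7 to 11.1, with aPD1ab replicate 4 at -14.2. Loop and distal tubule markers were highest in IgG2a replicate 1 (13248 CPM). Counts of members that passed by edgeR against the IgG2a group are therefore given with and without IgG2a replicate 1. Values of single genes are given with that library, without it, or both. Where a member's difference between aPD1ab and IgG2a is given only without it, the member did not pass with all libraries. aPD1ab replicate 2 held the most proximal tubule and the least podocyte mRNA. Totals were 19912969 to 32717100 counts, at which 3 counts amount to 0.0851 to 0.202 CPM.

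Promoters of 3 members that went opposite ways with age are shown as the 250 bases before the RefSeq start (GRCm38.p6), 5′ to 3′ on the strand of the gene. Slc34a1 and Slc2a2 were lower in aged IgG2a fractions and Slc37a2 was higher. They lie at chr13:55399398-55399647 (plus strand), chr3:28697653-28697902 (plus) and chr9:37255739-37255988 (minus). Capitals mark the HNF1 half-site GTTAAT and the HNF4 half-site CAAAGT, searched on both strands.
Slc34a1: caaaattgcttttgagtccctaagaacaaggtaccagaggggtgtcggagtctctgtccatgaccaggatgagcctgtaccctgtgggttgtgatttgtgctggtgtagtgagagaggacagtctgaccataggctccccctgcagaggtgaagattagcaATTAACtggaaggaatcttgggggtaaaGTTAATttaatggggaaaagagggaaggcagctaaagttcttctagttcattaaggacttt
Slc2a2: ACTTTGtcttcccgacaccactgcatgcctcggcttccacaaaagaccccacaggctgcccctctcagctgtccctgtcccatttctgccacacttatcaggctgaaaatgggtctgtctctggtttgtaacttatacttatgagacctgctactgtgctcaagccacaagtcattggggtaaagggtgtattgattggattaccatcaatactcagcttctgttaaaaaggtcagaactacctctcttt
Slc37a2: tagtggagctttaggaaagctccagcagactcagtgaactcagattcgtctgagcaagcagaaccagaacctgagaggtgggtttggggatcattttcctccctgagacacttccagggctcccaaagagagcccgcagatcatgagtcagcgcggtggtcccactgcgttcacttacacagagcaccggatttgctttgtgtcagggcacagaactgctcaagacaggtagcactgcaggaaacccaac
The Slc34a1 window lies inside the annotated gene body, since its annotation starts further upstream. HNF1 and HNF4 are transcription factors of the proximal tubule. Over windows from 250 bases before to 50 after the start, the HNF1 half-site was in 3 of 44 member windows (6.82%) and in 7.1% of all 32851 windows, and the HNF4 half-site in 3 (6.82%) against 14.4%. The holders were Slc34a1, Slc5a10 and Slc5a4a for HNF1 and Slc34a1, where the match spans the start and is not in the letters above, Slc2a2 and Slc2a12 for HNF4. The E-box CACGTG was in 4 member windows (9.09%; 7.15% of all), those of Slc17a2, Slc20a1, Slc37a3 and Slc5a1. Windows were found for 35 of the 43 members. These are matches of letters and not shown to be bound sites.

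Of the 43 members, 27 averaged at least 10 CPM over the 13 libraries and 34 had enough counts to be tested. The other 9 were never above 13 counts: Slc2a7, Slc5a4a, Slc5a4b, Slc5a5 (the iodide carrier), Slc5a7 (the choline carrier), Slc17a2 and the vesicular glutamate carriers Slc17a6, Slc17a7 and Slc17a8. Slc17a6 and Slc5a7 had no count in any library, which allows at most the level of 3 counts. Compared per kilobase of exon, Slc34a1 was the most abundant member, at 458 CPM per kilobase as the mean of the 13 libraries. Slc17a1 (65.5), Slc5a2 (48.7), Slc37a4 (25.9), Slc5a12 (24.0), Slc17a3 (20.6) and Slc2a1 (18.8) followed. Slc34a3, Slc20a1, Slc2a4, Slc5a3 and Slc5a10 lay together at 10.1 to 11.6. Slc34a1 made up 57.0 to 65.8% of all member CPM in young mice, 56.0, 31.5, 40.4 and 44.4% with IgG2a and 59.0 to 69.3% with aPD1ab. Its per-length level was 565 ± 134 CPM per kilobase in young mice (SD, n = 5), 152 ± 126 with IgG2a (n = 4) and 632 ± 346 with aPD1ab (n = 4).

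**Figure D1:**
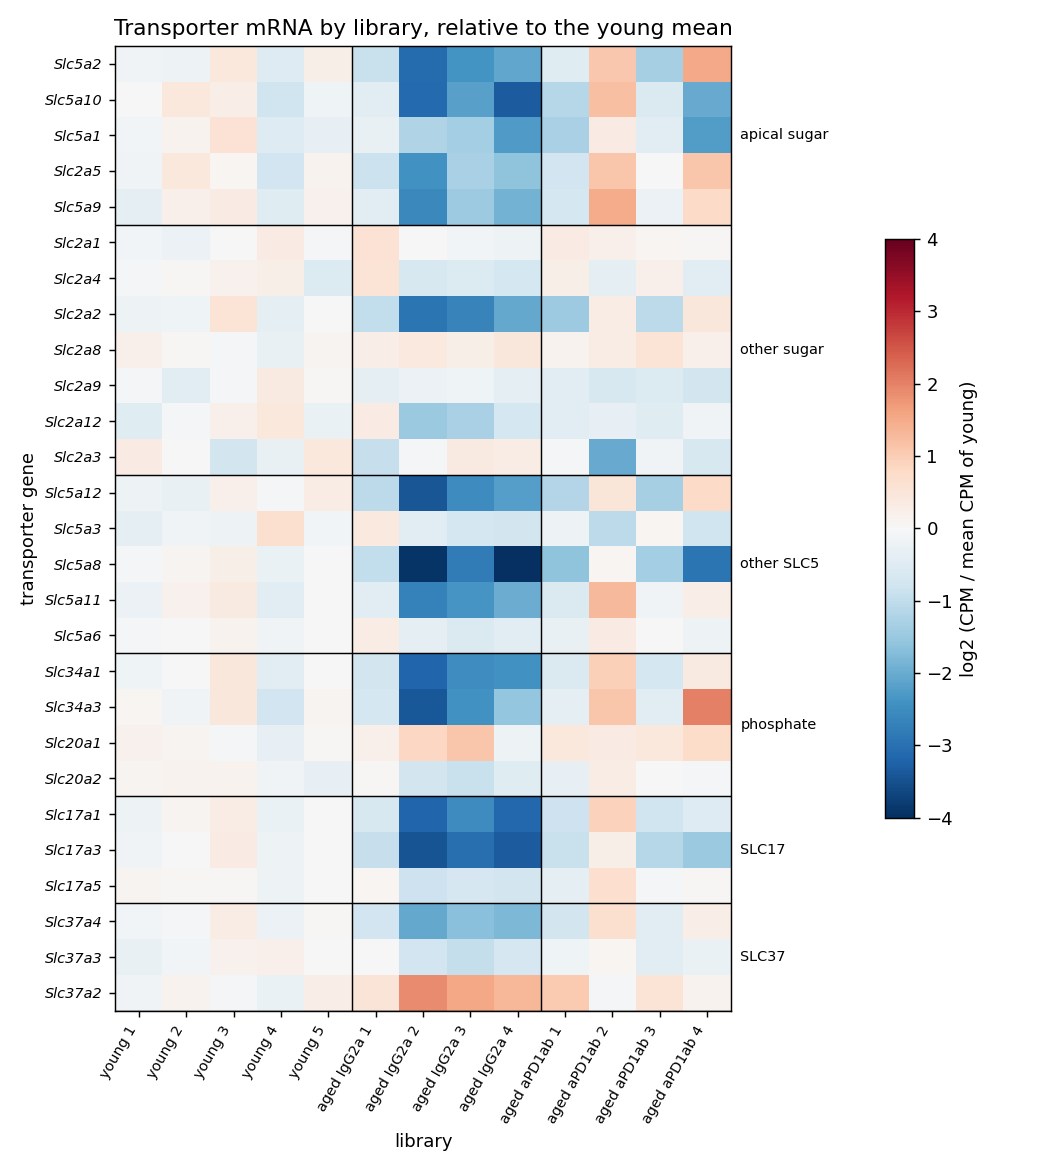
Each row is one of the 27 members with a mean of at least 10 CPM, each column 1 library, and the colour is the log2 of its CPM over the mean of the 5 young libraries. Aged IgG2a replicates 2 to 4 are blue for most sodium-coupled carriers (Slc34a1 at 293 to 492 CPM against 1958 to 3636 in young mice), IgG2a replicate 1 is paler, and Slc37a2 is red in the same libraries.

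The age comparison, aged IgG2a against young mice, asked how the podocyte fraction of aged mice given the control antibody differs from that of uninjected young mice. Age and injection cannot be told apart in it, and a change with age means this comparison throughout. Carriers of the proximal tubule were lower in the aged fractions, among them the phosphate carrier Slc34a1 by 3.61-fold, the glucose carriers Slc5a2 by 3.55-fold and Slc2a2 by 3.73-fold, and the monocarboxylate carrier Slc5a8 by 5.01-fold. The sugar-phosphate carrier Slc37a2 was higher by 2.81-fold. Without IgG2a replicate 1 these folds were 6.00 for Slc34a1, 5.27 for Slc5a2, 5.43 for Slc2a2, 10.8 for Slc5a8 and 3.23 for Slc37a2. By edgeR, 13 of the 34 tested members fell (8.38% of all 15953 genes tested fell) and 3 rose (9.05% of all), whereas on the scale of the proximal tubule markers 2 fell (0.288% of all) and 18 rose (91.4% of all). Without IgG2a replicate 1, 22 fell (23.5% of all) and 6 rose (22.1%). The median log2 change of the tested members was -0.51, against 0.038 for all genes, and -0.83 without replicate 1. Leaving out any other library lowered the calls among members and among all genes. Members that fell numbered from 2 without IgG2a replicate 3 (1.8% of all genes) to 8 without young replicate 4 (4.28%). In the same fits 1 member (1.6% of all genes) and 2 members (2.82%) rose. Of the 34 members, DESeq2 called 17 lower and 4 higher (13.6% and 14.3% of all genes), limma voom with sample weights 20 and 6 (22.2% and 24.4%), and edgeR with 1 fit of the 3 groups 10 and 1 (7.61% and 6.36%). With a change over 2-fold also asked for, 12 fell and 2 rose (4.59% and 3.89% of all genes). For 11 members all aged values lay below all young values (9.45% of all genes) and for 3 above (4.88%); without replicate 1 these were 22 (28.7%) and 5 (18.2%).

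The treatment comparison, aPD1ab against IgG2a in aged mice, asked what blocking PD-1 does to the aged fraction, and it shares the IgG2a libraries with the age comparison. Over all libraries 0 of the 34 members, and 0% of the 15530 genes tested, passed an edgeR adjusted p of 0.05, the lowest over all genes being 0.102. At an unadjusted p under 0.05, 13 members were higher (15.7% of all genes) and 2 lower (12.2%). DESeq2 called 11 higher and 1 lower (8.95% and 6.33% of all genes), limma voom with sample weights 16 and 4 (20.9% and 18.9%), and edgeR with 1 fit of the 3 groups 10 and 1 (11.4% and 6.14%). Without IgG2a replicate 1, 17 members rose with aPD1ab (17.1% of all genes) and 2 fell, Slc2a9 and Slc37a2 (13.2%), whereas on the scale of the proximal tubule markers, with all libraries, 0 rose (0.058% of all) and 19 fell (79.6% of all). Leaving out any single other library gave 0 members in either direction (0% of all genes without aPD1ab replicate 2). The groups did not overlap for 4 members that were higher (6.61% of all genes), Slc34a1, Slc34a3, Slc2a5 and Slc37a4, and for Slc2a9, which was lower (4.91%); without replicate 1 there were 19 (25.6%) and 4 (17.8%). The median log2 difference of members was 0.45 with all libraries and 0.69 without replicate 1.

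Aged aPD1ab fractions were also set beside young ones, a comparison without any IgG2a library, in which age and injection likewise cannot be told apart. Slc20a1, the phosphate carrier PiT-1, rose and Slc2a9, a urate carrier, fell, and no other member passed (12.4% of 15986 genes rose and 9.97% fell). On the scale of the proximal tubule markers neither passed (1.28% of all genes rose and 0.281% fell), nor did any member with a change over 2-fold (2.1% and 2.69%). DESeq2 called 1 member higher and 1 lower (15.3% and 13.6% of all genes), voom 1 and 5 (13.5% and 11.5%), and 1 fit of the 3 groups 0 and 1 (9.13% and 8.64%). Slc20a1 and Slc2a9 were also the members whose groups did not overlap, 1 higher (11.3% of all genes) and 1 lower (10.7%). The median over the 34 members was -0.00077 on the log2 scale, against 0.017 for all genes. Without aPD1ab replicate 2, the library with the highest tubule and lowest podocyte markers, 3 rose (Slc20a1, Slc37a2 and Slc17a9; 12.1% of all genes) and 5 fell (Slc2a9, Slc5a8, Slc5a10, Slc17a1 and Slc17a3; 10.5%). Without aPD1ab replicate 4, 1 member rose (8.3% of all genes) and 0 fell by edgeR (6.32%), with 1 lower at an unadjusted p under 0.05.

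**Figure D2:**
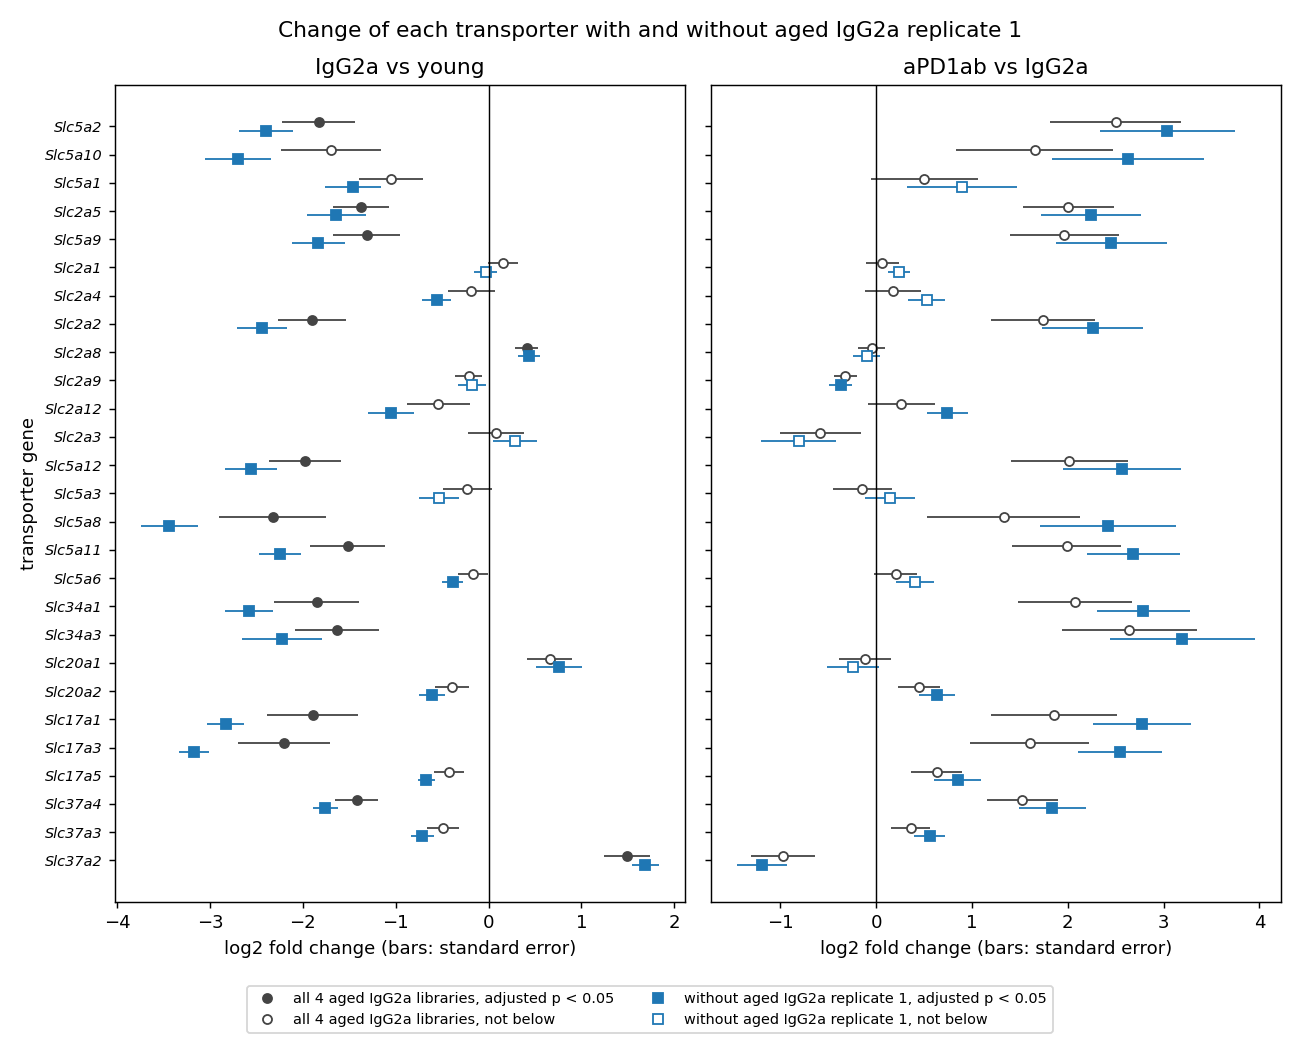
The axis is the log2 fold change of edgeR with its standard error for the 27 members, at left IgG2a against young and at right aPD1ab against IgG2a, with all libraries (circles) and without aged IgG2a replicate 1 (squares). Filled symbols passed an adjusted p of 0.05: at right no circle is filled, while 19 squares are, and on the scale of the proximal tubule markers the direction turned for 14 of the members called in either fit at left (2 of them, Slc17a4 and Slc2a10, are not drawn) and for 6 at right.

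Phosphate carriers came first in abundance. Values in this and the next paragraphs follow the order of the replicates. Slc34a1 (ENSMUSG00000021490, chromosome 13, 55398187 to 55415592), the main phosphate carrier of the proximal tubule, measured 2320.2, 2606, 3636, 1958 and 2690.3 CPM in the young libraries, 1584, 293, 470.2 and 492 with IgG2a and 1765, 5076, 1621 and 3354 with aPD1ab. All young values were above all IgG2a values, and the aPD1ab range took in the young one. It fell with age (log2 fold change -1.85, SE 0.46, edgeR adjusted p = 0.0270; without IgG2a replicate 1 -2.58, SE 0.26, edgeR adjusted p = 3.17e-05). With aPD1ab it was higher in all 4 libraries than in any IgG2a library (log2 fold change 2.08, SE 0.60, edgeR adjusted p = 0.109), and without replicate 1 the difference passed (2.79, SE 0.49, edgeR adjusted p = 0.00813). Against young mice it differed by 0.17, SE 0.34, edgeR adjusted p = 0.744. Pfn3, on the opposite strand, shares 545 of its 4676 exon bases, and with the strand setting of the counting not given the reads there cannot be told apart.

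Slc34a3, which carries phosphate in the same membrane, measured 26.8, 23.2, 35.0, 15.03 and 27.4 CPM in the young libraries, 15.5, 2.41, 4.71 and 8.81 with IgG2a and 19.4, 54.9, 18.8 and 103 with aPD1ab. IgG2a replicate 1 overlapped the lowest young library, the other IgG2a libraries were lower, and aPD1ab replicate 4 was the highest of all. Its change with age was -1.63, SE 0.45, edgeR adjusted p = 0.0373, and -2.23, SE 0.43, edgeR adjusted p = 0.00324 without replicate 1. The difference between aPD1ab and IgG2a was 2.64, SE 0.71, edgeR adjusted p = 0.109 with all libraries and 3.19, SE 0.76, edgeR adjusted p = 0.0181 without replicate 1. Relative to the proximal tubule markers, Slc34a1 and Slc34a3 changed with age by -0.28 and 0.020 on the log2 scale, where the median of all genes lay at 1.97.

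The ubiquitous phosphate carriers varied less. Slc20a1 measured 55.5, 54.3, 47.5, 40.0 and 51.7 CPM in the young libraries, 57.8, 88.5, 108 and 43.6 with IgG2a and 66.8, 63.1, 67.3 and 82.4 with aPD1ab. The aPD1ab values were all above the young ones, and those with IgG2a spread across both. It rose in aPD1ab over young fractions (0.50, SE 0.12, edgeR adjusted p = 0.0160), whereas its change with age under IgG2a was 0.66, SE 0.24, edgeR adjusted p = 0.0811 with replicate 1 and 0.76, SE 0.25, edgeR adjusted p = 0.0316 without it. Of its 5580 exon bases, 280 and 452 are shared with Gm4430 and 9830144P21Rik on the opposite strand. Slc20a2 measured 32.4, 33.2, 33.2, 26.9 and 23.9 CPM in the young libraries, 31.1, 18.1, 16.2 and 21.6 with IgG2a and 23.8, 36.8, 29.5 and 29.0 with aPD1ab. IgG2a replicate 1 lay within the young range and the rest of its group below it. Without that library Slc20a2 fell with age (-0.61, SE 0.14, edgeR adjusted p = 0.00547) and rose with aPD1ab (0.64, SE 0.19, edgeR adjusted p = 0.0347), but with it the adjusted p were 0.149 and 0.213 by edgeR, and relative to the proximal tubule markers the signs turned to 1.46 and -1.27. Slc34a2 (NaPi-2b), the intestinal and lung form, stayed between 1.93 and 5.02 CPM in all libraries.

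**Figure D3:**
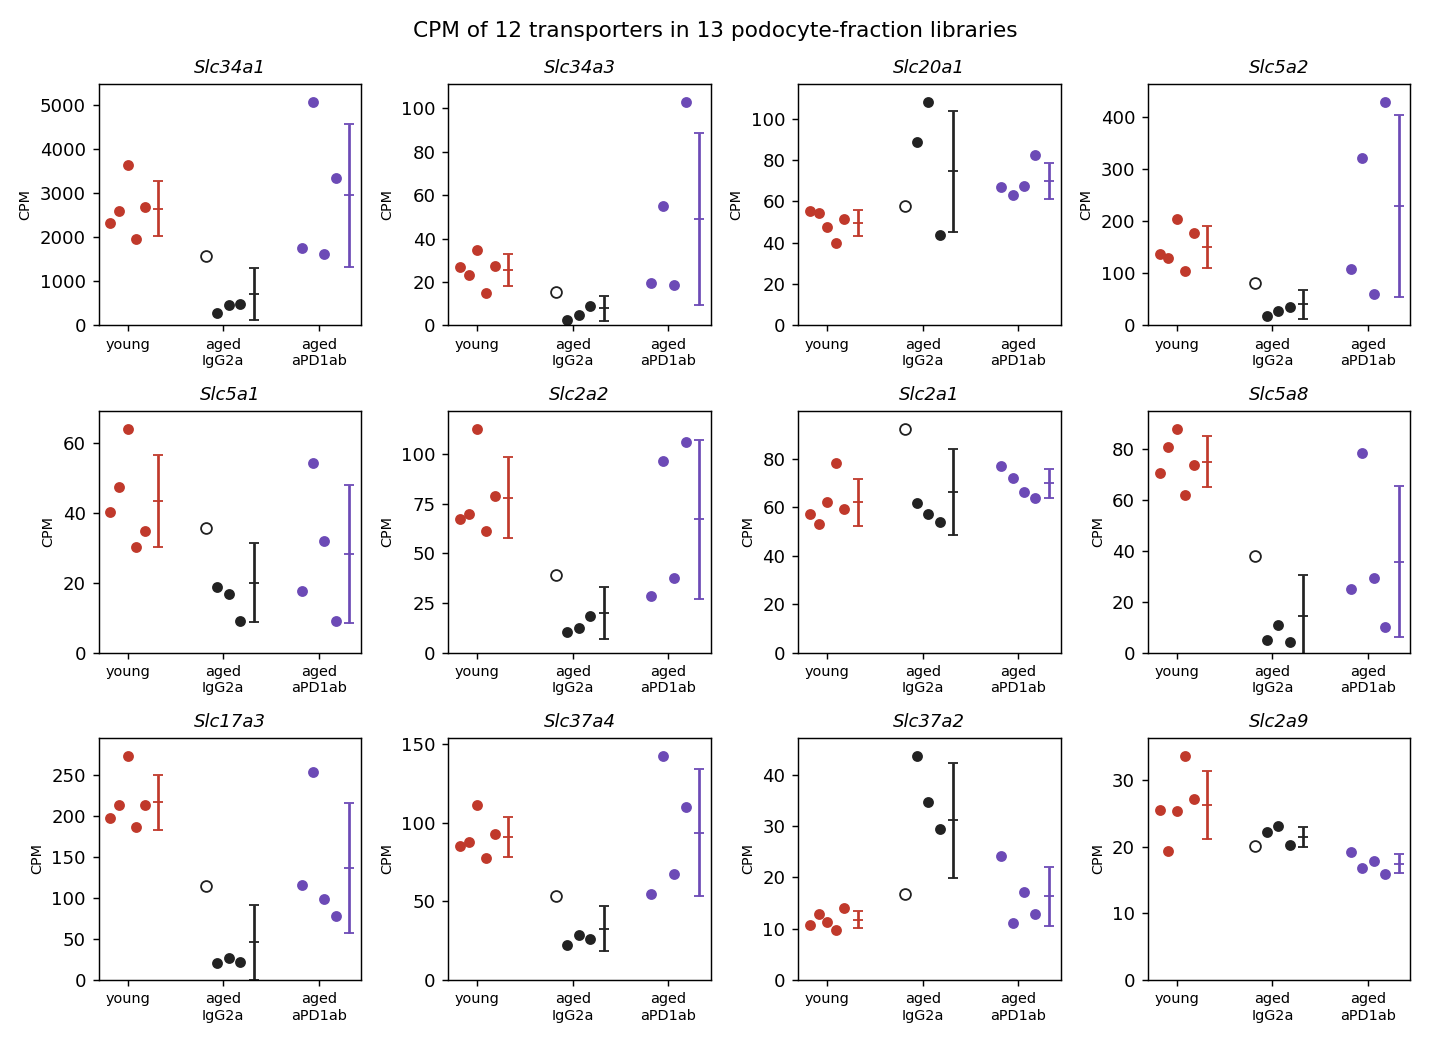
Each point is 1 library, on a linear CPM axis from 0, for 12 members in young (red), aged IgG2a (black, replicate 1 open) and aged aPD1ab (violet) fractions, with the mean and SD beside each group; the lower bars of Slc5a8 and Slc17a3 with IgG2a stop at 0. The open circle lies above the filled IgG2a points for Slc34a1 (1584 CPM) and below them for Slc37a2 (16.7 CPM), and Slc2a1 overlaps in all groups.

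Luminal sugar carriers were next. Slc5a2 (SGLT2; ENSMUSG00000030781, chromosome 7, 128265657 to 128272430) measured 137, 130.1, 204, 105 and 178 CPM in the young libraries, 81.6, 17.9, 28.5 and 35.5 with IgG2a and 108, 321, 59.8 and 429.7 with aPD1ab. No IgG2a value reached the young range, and the aPD1ab values reached from below the young range to well above it. It fell with age (-1.83, SE 0.39, edgeR adjusted p = 0.0193; without replicate 1 -2.40, SE 0.29, edgeR adjusted p = 0.000227). The difference between aPD1ab and IgG2a was 2.499, SE 0.68, edgeR adjusted p = 0.109, and 3.04, SE 0.71, edgeR adjusted p = 0.0172 without replicate 1. Of its exon bases 597 of 2897 are shared with BC017158 on the opposite strand.

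Slc5a1 (SGLT1), which recovers the glucose left further along the tubule, measured 40.2, 47.5, 64.2, 30.4 and 34.8 CPM in the young libraries, 35.7, 18.7, 16.9 and 9.01 with IgG2a and 17.6, 54.5, 32.05 and 9.16 with aPD1ab. Young and IgG2a values overlapped through replicate 1, and aPD1ab replicate 4 was as low as IgG2a replicate 4. It passed in the age comparison without replicate 1 (-1.46, SE 0.31, edgeR adjusted p = 0.00466) and not with it (-1.05, SE 0.34, edgeR adjusted p = 0.0594), and its difference between aPD1ab and IgG2a was 0.50, SE 0.56, edgeR adjusted p = 0.576. Slc5a10 (SGLT5), a carrier of mannose and fructose, measured 31.3, 42.8, 37.9, 18.2 and 27.9 CPM in the young libraries, 23.5, 3.67, 7.01 and 3.16 with IgG2a and 14.5, 72.2, 21.4 and 7.88 with aPD1ab. Its IgG2a replicates 2 to 4 were the lowest of all libraries, and its change with age was -1.70, SE 0.54, edgeR adjusted p = 0.0549 with replicate 1 and -2.70, SE 0.36, edgeR adjusted p = 0.000407 without it. Between aPD1ab and IgG2a it differed by 1.66, SE 0.82, edgeR adjusted p = 0.218 with replicate 1 and by 2.63, SE 0.79, edgeR adjusted p = 0.0393 without it.

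Slc5a9 (SGLT4), which also takes mannose, measured 10.0, 15.1, 16.4, 9.38 and 14.7 CPM in the young libraries, 9.55, 2.20, 4.82 and 3.56 with IgG2a and 8.07, 36.7, 11.1 and 22.5 with aPD1ab. Slc2a5 (GLUT5), the fructose carrier, measured 16.9, 24.6, 19.5, 10.9 and 20.5 CPM in the young libraries, 10.1, 3.43, 7.54 and 6.12 with IgG2a and 10.8, 40.0, 18.5 and 40.2 with aPD1ab. Both were lowest in IgG2a replicates 2 to 4 and reached their highest values in aPD1ab replicates 2 and 4. Slc5a9 fell with age (-1.31, SE 0.36, edgeR adjusted p = 0.0368; without replicate 1 -1.83, SE 0.29, edgeR adjusted p = 0.000593), as did Slc2a5 (-1.37, SE 0.30, edgeR adjusted p = 0.0204; without replicate 1 -1.64, SE 0.31, edgeR adjusted p = 0.00256), with signs turned to 0.33 and 0.40 relative to the proximal tubule markers. Without replicate 1 both were higher with aPD1ab than with IgG2a (Slc5a9 2.46, SE 0.58, edgeR adjusted p = 0.0181; Slc2a5 2.24, SE 0.52, edgeR adjusted p = 0.0174). In this group of 7 luminal carriers 3 of the 5 tested fell with age (8.38% of all genes), and all 5 without replicate 1 (23.5%), but 0 relative to the proximal tubule markers (0.288%), where values ran from -0.29 (Slc5a10) to 0.71 (Slc5a1).

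Among the facilitative glucose carriers, Slc2a2 (GLUT2; ENSMUSG00000027690, chromosome 3, 28697903 to 28731359) moved with the luminal ones. It measured 67.1, 69.7, 113, 61.4 and 78.8 CPM in the young libraries, 39.1, 10.2, 12.3 and 18.7 with IgG2a and 28.3, 96.5, 37.5 and 106 with aPD1ab. All IgG2a values were below all young ones, and the aPD1ab values reached from below the young range into it. It fell with age (-1.90, SE 0.37, edgeR adjusted p = 0.0146; without replicate 1 -2.44, SE 0.27, edgeR adjusted p = 0.000130), and without replicate 1 it was higher with aPD1ab (2.26, SE 0.53, edgeR adjusted p = 0.0172). Relative to the proximal tubule markers it changed with age by -0.21.

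Slc2a1 (GLUT1), used by most cells, measured 57.3, 53.2, 62.4, 78.5 and 59.3 CPM in the young libraries, 92.5, 61.7, 57.1 and 54.1 with IgG2a and 77.3, 72.2, 66.3 and 64.0 with aPD1ab. The 3 groups overlapped, with a change with age of 0.16, SE 0.16, edgeR adjusted p = 0.507 and a difference between aPD1ab and IgG2a of 0.065, SE 0.17, edgeR adjusted p = 0.825. Slc2a4 (GLUT4), the carrier that insulin brings to the surface, measured 38.3, 41.0, 44.1, 46.8 and 27.2 CPM in the young libraries, 57.1, 25.2, 26.8 and 24.3 with IgG2a and 46.7, 30.4, 45.5 and 28.7 with aPD1ab. IgG2a replicate 1 was its highest library and the other IgG2a libraries its lowest. Without replicate 1 it fell with age (-0.56, SE 0.16, edgeR adjusted p = 0.0134); with it the estimate was -0.19, and relative to the proximal tubule markers 1.55.

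Slc2a8 (GLUT8), an intracellular glucose carrier, measured 16.5, 14.9, 13.8, 11.7 and 15.4 CPM in the young libraries, 17.2, 19.0, 16.9 and 19.7 with IgG2a and 15.98, 17.6, 21.1 and 16.8 with aPD1ab. All IgG2a values were above all young ones, by a small margin, and it rose with age (0.41, SE 0.12, edgeR adjusted p = 0.0439; without replicate 1 0.44, SE 0.12, edgeR adjusted p = 0.0140). Slc2a9 (GLUT9), which carries urate, measured 25.6, 19.4, 25.4, 33.7 and 27.2 CPM in the young libraries, 20.1, 22.3, 23.2 and 20.3 with IgG2a and 19.3, 16.9, 17.9 and 15.9 with aPD1ab. Its aPD1ab libraries were the 4 lowest of the 13. It fell in aPD1ab against young fractions (-0.57, SE 0.15, edgeR adjusted p = 0.0197), and against IgG2a the difference was -0.32, SE 0.12, edgeR adjusted p = 0.138, and -0.37, SE 0.12, edgeR adjusted p = 0.0421 without replicate 1.

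Slc2a12 (GLUT12) measured 10.9, 14.6, 17.8, 20.5 and 12.8 CPM in the young libraries, 19.2, 5.51, 6.26 and 9.48 with IgG2a and 11.6, 12.3, 10.98 and 13.8 with aPD1ab. Slc2a3 (GLUT3), the neuronal and leukocyte form, measured 18.9, 15.1, 9.08, 12.1 and 19.9 CPM in the young libraries, 7.88, 14.5, 19.2 and 18.6 with IgG2a and 14.3, 3.70, 13.7 and 9.56 with aPD1ab. Neither passed in the age comparison with all libraries. Without replicate 1, Slc2a12 fell with age (-1.05, SE 0.24, edgeR adjusted p = 0.00597) and rose with aPD1ab (0.74, SE 0.22, edgeR adjusted p = 0.0339), with the signs turned relative to the proximal tubule markers (1.13 and -1.23). Slc2a3 was lowest in aPD1ab replicate 2, and its change with age was 0.085, SE 0.30, edgeR adjusted p = 0.860. Slc2a6 (GLUT6), of lysosomes, and Slc2a10 (GLUT10) were low, at 4.14 to 17.3 and 0.336 to 1.79 CPM. Slc2a10 fell with age (-0.998, SE 0.23, edgeR adjusted p = 0.0240; without replicate 1 -0.95, SE 0.28, edgeR adjusted p = 0.0180; 0.96 relative to the proximal tubule markers), and Slc2a6 rose once replicate 1 was left out (1.10, SE 0.23, edgeR adjusted p = 0.00344).

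The remaining Slc5a members carry other solutes. Slc5a8 (SMCT1; ENSMUSG00000020062, chromosome 10, 88885992 to 88929515) takes up lactate and other monocarboxylates late in the proximal tubule, and it measured 70.8, 80.9, 88.1, 61.9 and 74.0 CPM in the young libraries, 38.1, 4.98, 10.7 and 4.03 with IgG2a and 24.9, 78.6, 29.4 and 10.0 with aPD1ab. No IgG2a value reached the young range, and IgG2a replicates 2 to 4 and aPD1ab replicate 4 were the lowest. It fell with age (-2.33, SE 0.57, edgeR adjusted p = 0.0270; without replicate 1 -3.44, SE 0.30, edgeR adjusted p = 4.26e-05), and also relative to the proximal tubule markers (-0.98, SE 0.35, edgeR adjusted p = 0.0118). The difference between aPD1ab and IgG2a was 1.33, SE 0.80, edgeR adjusted p = 0.294 with all libraries and 2.42, SE 0.71, edgeR adjusted p = 0.0361 without replicate 1, but -0.094 relative to the proximal tubule markers. Against young mice it differed by -1.06, SE 0.45, edgeR adjusted p = 0.118.

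Slc5a12 (SMCT2), the low-affinity monocarboxylate carrier, measured 112, 105, 146, 120.0 and 157 CPM in the young libraries, 62.5, 12.0, 22.5 and 27.9 with IgG2a and 57.0, 179, 50.7 and 216 with aPD1ab. It fell with age (-1.98, SE 0.39, edgeR adjusted p = 0.0152; without replicate 1 -2.56, SE 0.28, edgeR adjusted p = 0.000119) and, without replicate 1, was higher with aPD1ab than with IgG2a (2.57, SE 0.61, edgeR adjusted p = 0.0186). Its highest libraries were aPD1ab replicates 4 and 2. Slc5a11 (SMIT2), an inositol carrier of the tubule, measured 19.9, 26.6, 30.0, 17.4 and 23.5 CPM in the young libraries, 17.1, 3.63, 4.60 and 5.98 with IgG2a and 15.8, 58.0, 21.4 and 28.3 with aPD1ab. It likewise fell with age (-1.52, SE 0.41, edgeR adjusted p = 0.0334; without replicate 1 -2.25, SE 0.23, edgeR adjusted p = 3.95e-05), with 2.69, SE 0.49, edgeR adjusted p = 0.00904 between aPD1ab and IgG2a without replicate 1.

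Slc5a3 (SMIT1), the inositol carrier induced by high salt, measured 101, 120.0, 115, 205 and 123 CPM in the young libraries, 175, 98.6, 82.4 and 80.01 with IgG2a and 116, 65.0, 139.8 and 76.6 with aPD1ab. Young replicate 4 was its highest library, and the groups overlapped in the age comparison (-0.23, SE 0.27, edgeR adjusted p = 0.562). Slc5a6 (SMVT), the carrier of biotin and pantothenate, measured 12.2, 12.7, 13.9, 11.4 and 12.4 CPM in the young libraries, 15.3, 9.46, 8.35 and 9.41 with IgG2a and 10.2, 15.6, 12.7 and 10.8 with aPD1ab. IgG2a replicate 1 lay at the upper end and the others of its group below all young libraries, and without replicate 1 it fell with age (-0.39, SE 0.11, edgeR adjusted p = 0.0164), with the sign turned to 1.69 relative to the proximal tubule markers. Slc2a13, a proton-coupled inositol carrier, stayed between 1.87 and 6.11 CPM.

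Slc17a1 and Slc17a3, first named as sodium-phosphate carriers and known to carry urate and other organic anions, lie side by side on chromosome 13. Slc17a1 measured 182, 223, 253, 172 and 204 CPM in the young libraries, 134, 23.0, 36.5 and 23.3 with IgG2a and 116, 389.9, 119 and 143 with aPD1ab. Slc17a3 measured 197, 213, 273, 187 and 213 CPM in the young libraries, 114, 19.9, 27.1 and 21.6 with IgG2a and 116, 253, 98.3 and 77.9 with aPD1ab. In both, IgG2a replicates 2 to 4 held far less than any other library, and replicate 1 lay between them and the young range. Slc17a1 fell with age (-1.90, SE 0.49, edgeR adjusted p = 0.0311; without replicate 1 -2.83, SE 0.20, edgeR adjusted p = 5.96e-06). Slc17a3 did so too (-2.20, SE 0.50, edgeR adjusted p = 0.0219; without replicate 1 -3.17, SE 0.16, edgeR adjusted p = 2.21e-06), and with Slc5a8 it was one of the 2 members that also fell relative to the proximal tubule markers (-0.75, SE 0.34, edgeR adjusted p = 0.0415). Without replicate 1 both were higher with aPD1ab than with IgG2a (Slc17a1 2.78, SE 0.52, edgeR adjusted p = 0.00955; Slc17a3 2.55, SE 0.44, edgeR adjusted p = 0.00800).

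Slc17a5 (sialin), which exports sialic acid from lysosomes, measured 40.0, 38.7, 38.6, 32.4 and 37.7 CPM in the young libraries, 39.3, 21.0, 23.6 and 22.5 with IgG2a and 29.4, 59.95, 36.6 and 39.1 with aPD1ab. IgG2a replicate 1 was level with the young libraries and the other IgG2a libraries were the 3 lowest of all, and without replicate 1 it fell with age (-0.67, SE 0.094, edgeR adjusted p = 0.000267) but had the opposite sign relative to the proximal tubule markers (1.39). Between aPD1ab and IgG2a it differed by 0.63, SE 0.27, edgeR adjusted p = 0.164 with all libraries and 0.85, SE 0.25, edgeR adjusted p = 0.0336 without replicate 1, and by -1.12 relative to the markers. Slc17a9, the vesicular nucleotide carrier, was low at 1.71 to 8.40 CPM and rose with age (1.22, SE 0.26, edgeR adjusted p = 0.0196; without replicate 1 1.37, SE 0.23, edgeR adjusted p = 0.000842). All its IgG2a values were above all young values. Slc17a4 lay between 0.321 and 3.58 CPM and in the age comparison edgeR gave -1.28, SE 0.46, edgeR adjusted p = 0.0791 with all libraries and -1.48, SE 0.52, edgeR adjusted p = 0.0371 without replicate 1, while DESeq2 called it lower with all of them.

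The Slc37a family holds carriers that exchange sugar phosphates for phosphate. Slc37a4 (ENSMUSG00000032114, chromosome 9, 44396852 to 44402968) brings glucose 6-phosphate into the endoplasmic reticulum, where G6pc makes glucose from it, and it measured 85.2, 87.9, 111, 77.6 and 93.1 CPM in the young libraries, 53.7, 22.1, 28.4 and 26.3 with IgG2a and 54.8, 143, 67.1 and 110.3 with aPD1ab. All IgG2a values were below all young and all aPD1ab values. It fell with age (-1.42, SE 0.23, edgeR adjusted p = 0.00873; without replicate 1 -1.76, SE 0.14, edgeR adjusted p = 7.14e-06), and the difference between aPD1ab and IgG2a was 1.53, SE 0.37, edgeR adjusted p = 0.109 with all libraries and 1.84, SE 0.35, edgeR adjusted p = 0.00986 without replicate 1. Relative to the proximal tubule markers it changed with age by 0.35, where all genes had a median of 1.97.

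Slc37a2 (ENSMUSG00000032122, chromosome 9, 37227585 to 37255738), known from macrophages and osteoclasts, ran the other way. It measured 10.7, 12.9, 11.3, 9.79 and 14.0 CPM in the young libraries, 16.7, 43.7, 34.7 and 29.4 with IgG2a and 24.1, 11.03, 17.1 and 12.8 with aPD1ab. All IgG2a values were above all young ones, with replicate 1 the closest to them, and the aPD1ab libraries overlapped both. It rose with age (1.49, SE 0.25, edgeR adjusted p = 0.00945; without replicate 1 1.69, SE 0.15, edgeR adjusted p = 1.41e-05), and it fell with aPD1ab against IgG2a when replicate 1 was left out (-1.19, SE 0.26, edgeR adjusted p = 0.0145; with it -0.97, SE 0.33, edgeR adjusted p = 0.125). Macrophage markers moved with it: 9 of 10 rose with age (9.05% of all genes) and all 10 without replicate 1 (22.1%), where 9 fell with aPD1ab (13.2%). Their sums were 7302 to 9463 CPM in IgG2a replicates 2 to 4. The part of macrophage mRNA in the change of Slc37a2 was not tested.

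Slc37a3 measured 28.6, 32.04, 39.1, 40.0 and 34.4 CPM in the young libraries, 34.2, 20.5, 18.0 and 22.1 with IgG2a and 31.1, 37.0, 25.5 and 28.8 with aPD1ab. IgG2a replicate 1 lay within the young range and the other IgG2a libraries were the 3 lowest of all. Without replicate 1 it fell with age (-0.71, SE 0.13, edgeR adjusted p = 0.00119) and rose with aPD1ab (0.56, SE 0.16, edgeR adjusted p = 0.0333), with opposite signs relative to the proximal tubule markers (1.36 and -1.34). Slc37a1 lay between 5.78 and 14.0 CPM and rose with age without replicate 1 (0.59, SE 0.12, edgeR adjusted p = 0.00288).

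Proximal tubule markers moved with the tubular carriers. Of the 15 markers, 13 fell with age (8.38% of all genes) and all 15 without replicate 1 (23.5%). With aPD1ab against IgG2a, 0 passed with all libraries (0% of all genes) and 13 rose without replicate 1 (17.1%). In these bulk fractions, fewer tubule cells and less RNA per tubule cell cannot be told apart. Scaling each library to those markers moved the median log2 change of all genes to 1.97 with age, to -1.74 for aPD1ab against IgG2a and to 0.25 for aPD1ab against young, so a member near 0 on that scale moved with the markers and one near the median moved with the bulk of genes. Slc34a1, Slc5a2, Slc2a2, Slc5a12 and Slc5a11 were near 0 with age (-0.28, -0.17, -0.21, -0.35 and 0.056). Slc2a1, Slc20a1 and Slc37a2 were at 2.01, 2.68 and 3.62.

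**Figure D4:**
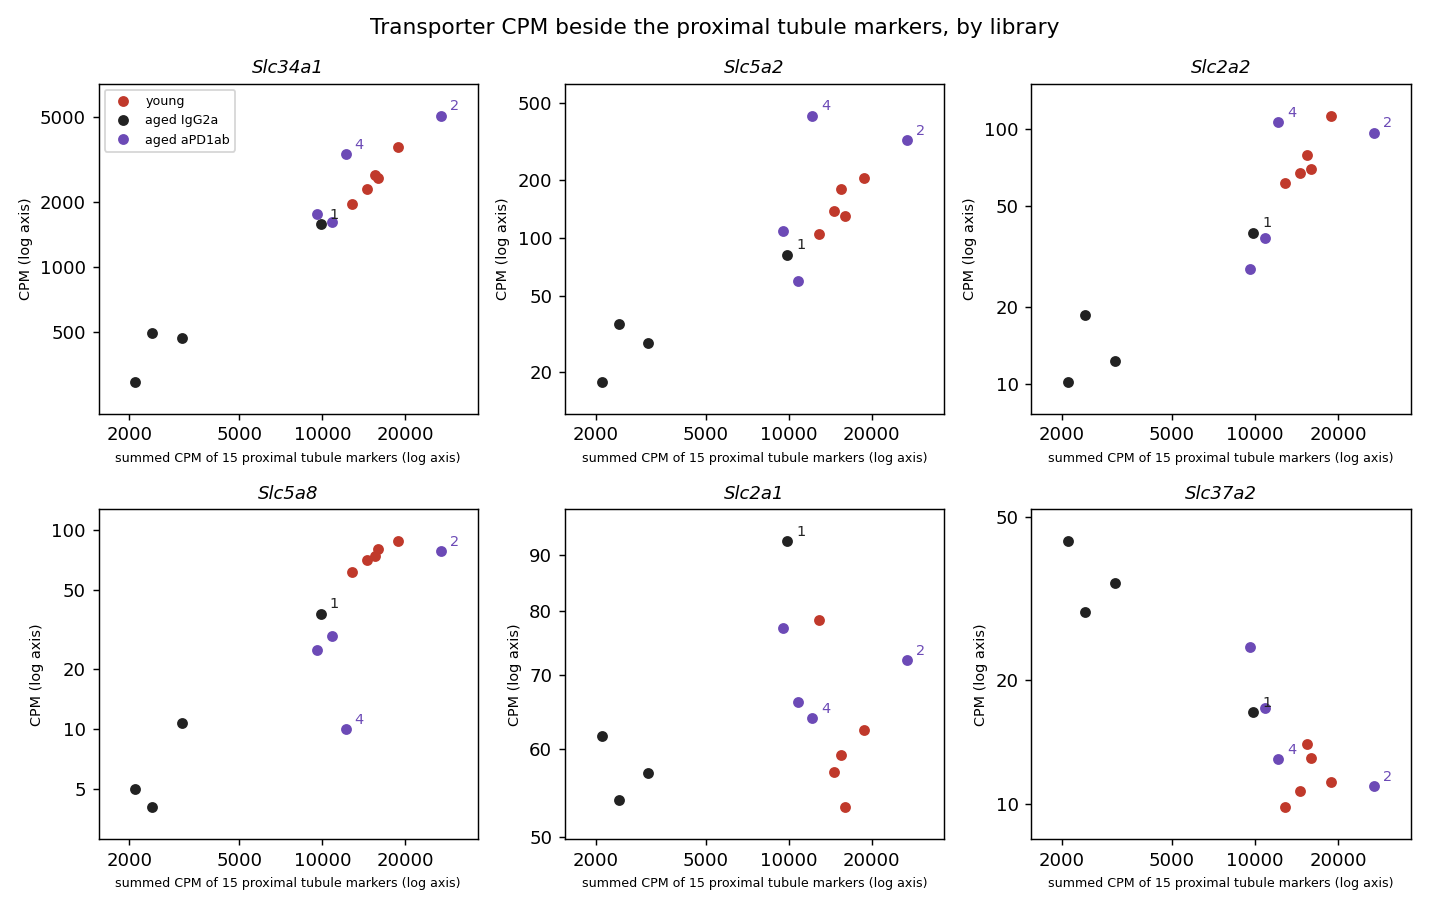
Each point is 1 library, with the summed CPM of the 15 proximal tubule markers across and the CPM of 1 member up, both on log axes; aged IgG2a replicate 1 and aPD1ab replicates 2 and 4 are numbered. Slc34a1, Slc5a2, Slc2a2 and Slc5a8 are low where the markers are low (2100 to 3106 CPM), Slc2a1 is not, Slc37a2 is high there, and aPD1ab replicate 4 has more Slc5a2 (429.7 CPM) and less Slc5a8 (10.0 CPM) than libraries with like marker sums. The sum depends strongly on 1 marker, Kap. It was at 885 CPM in aPD1ab replicate 4, 3403, 9400 and 4303 in aPD1ab replicates 1 to 3 and 4670 to 6804 in young libraries.

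Genes that work beside the carriers were read from a list of 28 partners. With age 14 fell and 1 rose (8.38% and 9.05% of all genes), and without replicate 1, 20 fell and 2 rose (23.5% and 22.1%). Relative to the proximal tubule markers 0 fell and 17 rose, where 0.288% and 91.4% of all genes did. Hnf4a, Fbp1 and Pck1 of this list are also among those markers. Changes of single partners with age are given for all libraries, with IgG2a replicate 1 included. Among genes of phosphate handling, Pdzk1, a scaffold that binds NaPi-2a, fell with age (-1.99, SE 0.46, edgeR adjusted p = 0.0230; -0.49 relative to the markers). Pth1r, the parathyroid hormone receptor, fell (-1.16, SE 0.25, edgeR adjusted p = 0.0198; 0.58 relative to the markers), as did Kl, the FGF23 co-receptor Klotho (-1.15, SE 0.32, edgeR adjusted p = 0.0380; 0.56), and the phosphate exporter Xpr1 (-0.56, SE 0.12, edgeR adjusted p = 0.0171; 1.35). Cyp24a1, which breaks down vitamin D, fell too (-2.83, SE 0.66, edgeR adjusted p = 0.0238; -0.89 relative to the markers).

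Among genes of glucose handling, G6pc, which releases glucose, and Pck1, of gluconeogenesis, fell with age (G6pc -2.18, SE 0.48, edgeR adjusted p = 0.0204; Pck1 -2.07, SE 0.57, edgeR adjusted p = 0.0358), at -0.65 and -0.70 relative to the markers, of which Pck1 is one. Hk2, which phosphorylates glucose on entry, was the partner that rose (0.91, SE 0.25, edgeR adjusted p = 0.0376). It was at 14.8 CPM in IgG2a replicate 1, within the young range of 10.4 to 18.1, and at 25.5 to 33.0 in replicates 2 to 4. The hexokinase Hk3 was at 16.2 CPM in IgG2a replicate 1 and 34.7 to 48.3 in replicates 2 to 4. Macrophage markers summed to 7302 to 9463 CPM in replicates 2 to 4. The part of macrophage mRNA in Hk2 and Hk3 was not tested. For aPD1ab against IgG2a 0 partners, and 0% of all genes, passed in edgeR with all libraries. At an unadjusted p under 0.05, 15 were higher and 3 lower (15.7% and 12.2% of all genes), and DESeq2 called 12 and 3 (8.95% and 6.33%). Without replicate 1, 16 partners rose and 2 fell (17.1% and 13.2% of all genes), the latter being the hexokinases Hk2 (-1.28, SE 0.28, edgeR adjusted p = 0.0145) and Hk3 (-1.22, SE 0.21, edgeR adjusted p = 0.00778). Relative to the proximal tubule markers, with all libraries, 12 fell and 0 rose, where 79.6% and 0.058% of all genes did. Against young mice, aPD1ab fractions had lower Kl (-0.92, SE 0.20, edgeR adjusted p = 0.0105), Insr (-0.65, SE 0.13, edgeR adjusted p = 0.00931), Vdr and Xpr1, and higher Pdzk1ip1 (0.77, SE 0.21, edgeR adjusted p = 0.0247) and Txn1 (9.97% of all genes fell and 12.4% rose). Relative to the markers no partner passed (0.281% of all genes fell and 1.28% rose).

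Ratios within a library do not depend on its scaling, and they were read as a description. The CPM ratio of Slc5a2 to Slc5a1 was 3.41, 2.74, 3.17, 3.44 and 5.13 in young mice, 2.29, 0.954, 1.69 and 3.94 with IgG2a and 6.13, 5.90, 1.87 and 46.9 with aPD1ab. Slc5a12 to Slc5a8 gave 1.58, 1.29, 1.66, 1.94 and 2.12, then 1.64, 2.40, 2.10 and 6.92 and 2.29, 2.27, 1.72 and 21.6. In both, aPD1ab replicate 4 stood far above the other 12 libraries. Slc34a3 to Slc34a1 was 0.00768 to 0.0116 in young mice, 0.0179 in IgG2a replicate 4 and 0.0308 in aPD1ab replicate 4. Slc5a2, Slc34a3, Slc5a12 and Slc2a2 were thus high in aPD1ab replicate 4, and Slc5a1, Slc5a8, Slc5a10 and Slc17a3 low, at 9.16, 10.0, 7.88 and 77.9 CPM.

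**Figure D5:**
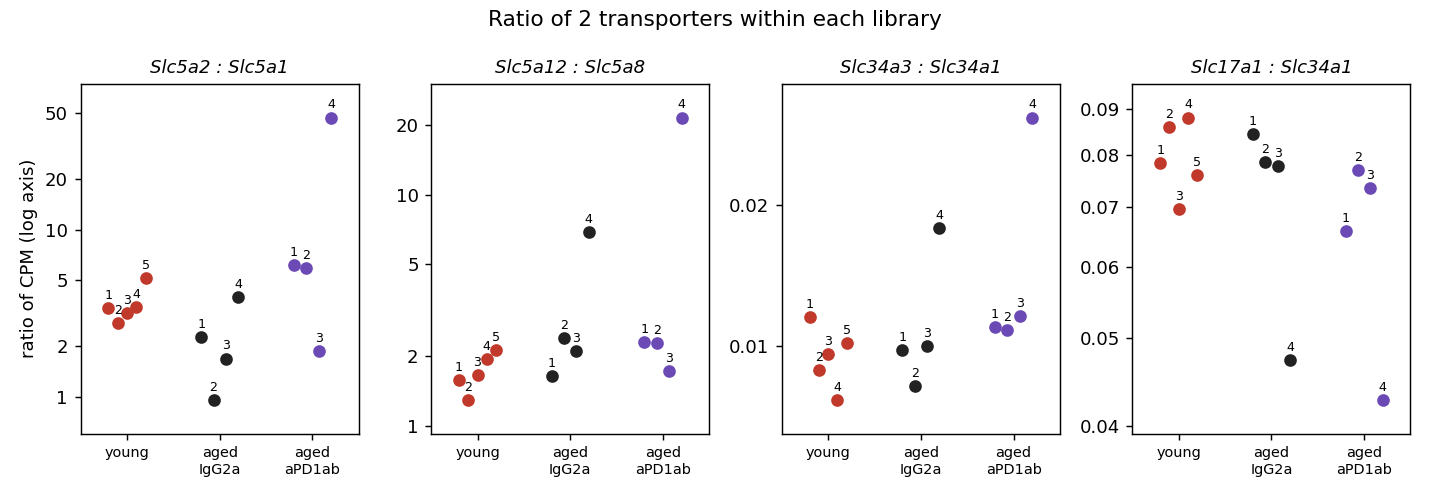
Points are libraries, numbered by replicate, and the log axis is the ratio of the CPM of 2 members in the same library. aPD1ab replicate 4 is the highest for Slc5a2 to Slc5a1 (46.9), Slc5a12 to Slc5a8 (21.6) and Slc34a3 to Slc34a1 (0.0308) and the lowest for Slc17a1 to Slc34a1 (0.0427), and IgG2a replicate 4 lies next to it in the last 3.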

How the data were processed

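The authors deposited 1 table of gene counts, not normalized; HISAT2, featureCounts and the mm10/GRCm38 build are named in the submitters' processing notes, without versions. The strand setting of the counting is not given in the sources used here. Besides Slc34a1 and Slc5a2, exons of Slc20a1, Slc20a2, Slc2a1, Slc2a12, Slc5a6 and Slc5a10 overlap those of genes on the opposite strand. Exons of Slc5a3 overlap those of Mrps6 on the same strand. Groups of 13 numbered columns followed the principal component plot of the study, and 2 columns of per-sample values were not used. Genes were annotated from GENCODE M21, and promoters came from RefSeq. Each pair of groups was fitted over all genes with edgeR 4.0.16 in R 4.3.3 (filterByExpr, TMM, robust quasi-likelihood F test), with Benjamini-Hochberg adjustment over all genes tested and a threshold of 0.05. CPM used TMM library sizes. Alternatives were relative log expression factors, scaling to 15 proximal tubule markers, DESeq2 1.42.0, limma 3.58.1 voom with sample weights, 1 fit of 3 groups, no filter, a 2-fold threshold and leaving out each library. Values of every library are given for members with a mean of at least 10 CPM and for the 3 members with the smallest p in each comparison; the other members are given by range. Partners are named where they passed or where a member is read beside them. The fits were tested on simulated data. Members, lists and named genes were chosen with earlier results of these data known. Libraries are taken as separate mice, as the labels list them. The precision is set by the number of libraries and by totals of 19912969 to 32717100 counts, and limits from 3 counts cover counting error only.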

Additional observations from a re-analysis of the deposited data

Results flagged for a closer look

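Among 27 members in 3 groups of libraries, 81 sets of values, 8 held 1 library far from the others by Dixon's criterion at 95%, which chance gives for about 1 in 20 sets. In 6 of them that library was aged IgG2a replicate 1. Slc34a1 was at 1584 CPM there (the other IgG2a libraries at 293 to 492), Slc17a1 at 134 (23.0 to 36.5), Slc17a3 at 114 (19.9 to 27.1), Slc2a4 at 57.1 (24.3 to 26.8), Slc17a5 at 39.3 (21.0 to 23.6) and Slc5a6 at 15.3 (8.35 to 9.46). Slc17a1 was at 389.9 CPM in aPD1ab replicate 2 against 116 to 143 in the other aPD1ab libraries. Slc5a3 was at 205 CPM in young replicate 4 against 101 to 123 in the other young libraries.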

How the results depend on the processing

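Counts below are of members or of partners that passed, and the cause of each shift was not tested. Shares of all genes stand in parentheses beside the members and are the same for partners in the same fit. In IgG2a against young, 18 members rose and 2 fell relative to the proximal tubule markers (91.4% and 0.288% of all genes). With voom 6 rose and 20 fell (24.4% and 22.2%), in 1 fit of the 3 groups 1 rose (6.36%), and with no filter 8 fell (1065 of 26039 genes). Leaving out 1 library at a time gave 1 to 6 that rose (1.6% to 22.1% of all genes) and 2 to 22 that fell (1.8% to 23.5%). Of the partners, 17 rose and 0 fell relative to the markers and 2 rose with voom. In 1 fit of the 3 groups, with no filter (828 of 26039 genes rose) or over 2-fold (3.89% of all genes rose) 0 rose. Without 1 library, 0 to 2 rose and 0 to 20 fell. In aPD1ab against IgG2a, 11 members rose and 1 fell with DESeq2 (8.95% and 6.33% of all genes), 16 and 4 with voom (20.9% and 18.9%), and 10 and 1 in 1 fit of the 3 groups (11.4% and 6.14%). Relative to the markers 19 fell (79.6%), and without 1 library 0 to 17 rose (0% to 17.1%) and 0 to 2 fell (0% to 13.2%). Of the partners, 12 rose and 3 fell with DESeq2, 16 and 3 with voom, and 13 and 2 in 1 fit of the 3 groups, 12 fell relative to the markers, and without 1 library 0 to 16 rose and 0 to 2 fell. In aPD1ab against young, 0 members rose or fell relative to the markers (1.28% and 0.281% of all genes) or over 2-fold (2.1% and 2.69%). In 1 fit of the 3 groups 0 rose (9.13%), and with voom 5 fell (11.5%). Without 1 library 1 to 3 rose and 0 to 5 fell (3 and 5 without aPD1ab replicate 2, 12.1% and 10.5% of all genes). Of the partners, 0 rose or fell relative to the markers or over 2-fold, 1 rose in 1 fit of the 3 groups, and without 1 library 0 to 4 rose and 3 to 6 fell.

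Scaling to the proximal tubule markers turned these log2 changes. In IgG2a against young they became 0.59 for Slc17a4, 1.39 for Slc17a5, 1.46 for Slc20a2, 0.96 for Slc2a10, 1.13 for Slc2a12, 1.55 for Slc2a4, 0.40 for Slc2a5, 0.020 for Slc34a3, 1.36 for Slc37a3, 0.35 for Slc37a4, 0.71 for Slc5a1, 0.056 for Slc5a11, 1.69 for Slc5a6 and 0.33 for Slc5a9. In aPD1ab against IgG2a they became -1.12 for Slc17a5, -1.27 for Slc20a2, -1.23 for Slc2a12, -1.34 for Slc37a3, -0.21 for Slc37a4 and -0.094 for Slc5a8. No other alternative turned the direction of a called member (0 of 28, 0 of 19 and 0 of 2 in the 3 comparisons, over 14, 13 and 14 alternatives), whereas 3 of 6, 6 of 15 and 14 of 32 of the other tested members turned. No paired analysis was possible because the columns carry no replicate number of the labels and the groups are different mice.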
